A study of Mus musculus with 18 samples.

Results

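The proteasome genes were taken as every symbol in the count table that starts with Psm, followed by a letter from a to g and a digit, with the interferon-induced subunits Psmb8 and Psmb9 left out. The pattern matched 49 symbols, and 47 of the 23420 genes in the table remained. Of these 47, 31 encode the constitutive core: 7 alpha-ring and 7 beta-ring subunits of the 20S barrel, and 6 ATPases and 11 non-ATPase subunits of the 19S cap. The others are 3 chaperones of cap assembly (Psmd5, Psmd9, Psmd10), 4 chaperones of barrel assembly (Psmg1 to Psmg4), 4 activators (Psme1 to Psme4), the inhibitor Psmf1, and 3 subunits of tissue-type particles (Psma8 of testis, Psmb10 of immune cells and Psmb11 of thymus). The remaining symbol, Psmc3ip, fits the letters but encodes a partner protein of meiotic recombination and is no proteasome subunit. The cap subunits Adrm1 and Sem1 carry other symbols and are therefore not among the 47.

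RNA was sequenced from brains of Camk2a-Cre-Rpl22HA mice, in which Cre driven by the Camk2a promoter, active mainly in excitatory neurons of the forebrain, puts a hemagglutinin tag on the ribosomal protein Rpl22, so that tagged ribosomes can be pulled down. There were 3 conditions, all with this genotype: AZD mice carried implanted glioma cells in the cortex and received AZD8055, an inhibitor of the kinase mTOR, tumor mice carried the glioma cells without the drug, and control mice had no tumor. Each condition gave 3 libraries of immunoprecipitated polysomal RNA (IP) and 3 of total RNA (input), 18 in all, with 13561511 to 34178417 counts each. The source material gives no age, dose or time and does not say that replicates were separate animals, so a p-value here rests on how far these particular libraries differ from each other, and part of that may be technical.

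The 26S proteasome degrades proteins marked with ubiquitin. Its cap recognises, unfolds and feeds in the substrate, and 3 subunits of the beta ring, Psmb5, Psmb6 and Psmb7, cut it. The subunits are made in balanced amounts: the transcription factor Nfe2l1 raises their genes together when proteasome capacity falls short, and in neurons the particle takes part in the turnover of synaptic proteins. mTOR, the target of AZD8055, promotes translation and ribosome synthesis and also influences protein breakdown by proteasomes and autophagy.

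The markers of the libraries bear on every comparison below. The summed level of 10 excitatory neuron markers was 3702 to 4458 CPM (normalised read counts: edgeR's CPM unit after TMM scaling, the trimmed mean of M values) in AZD IP and 1388 to 1820 in AZD input, 1627 to 2082 in tumor IP and 1016 to 1826 in tumor input, and 3377 to 4115 in control IP and 2753 to 3001 in control input. In AZD, IP libraries were also low in other cell types: 8 astrocyte markers summed to 1778 to 2322 CPM in AZD IP and 5017 to 6111 in AZD input, and 8 glioma lineage markers to 501 to 691 CPM in AZD IP and 2821 to 4052 in AZD input. The tumor and control IP kept astrocyte RNA near the input level, at 4026 to 5470 CPM in tumor IP against 4602 to 5898 in tumor input and at 7153 to 7666 CPM in control IP against 7284 to 8522 in control input. None of the markers of these 3 lists was at 0 throughout a group. By library codes in the labels, tumor and control shared a library set within each fraction and all AZD libraries formed a set of their own. Tumor against control within a fraction and IP against input within AZD are therefore comparisons within a set. For IP against input in tumor or control, and for AZD against the other conditions, group and library set cannot be told apart.

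Summed over the 31 core subunits, the level was 4169 ± 535 CPM in AZD IP (SD, n = 3 here and for each group below) and 2945 ± 203 CPM in AZD input. It was 3066 ± 81.2 CPM in tumor IP and 2703 ± 156 CPM in tumor input, and 2886 ± 196 CPM in control IP and 2358 ± 113 CPM in control input. The 3 AZD IP libraries stood at 4764, 4014 and 3729 CPM, above each of the other 15 libraries, and the highest of the 3 was replicate 1. That library had the fewest counts of all 18, 13561511. For 22 of the 31 core genes, all 3 AZD IP libraries exceeded all 15 others, as for 10.4% of the 16016 genes kept over all libraries. For 27 of the 31 the highest library of the 18 was AZD IP replicate 1, as for 13.3% of those genes. The TMM factors were 0.90 to 0.92 in AZD IP, which raises its CPM, and 1.06 to 1.11 in AZD input, which lowers it. These rankings were made with TMM only, and whether they hold without it was not tested. In a bulk sample, fewer cells of a type and less RNA per cell cannot be told apart, and a share of all counts does not measure the amount of proteasome. RefSeq lists processed copies of Psma5, Psmb5, Psmb6 and Psmb7, and how reads shared with such copies were counted is not given in the sources used here, so the counts of these parents are less certain. Transcript lengths were not used, and levels are not compared between genes.

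**Figure D1:**
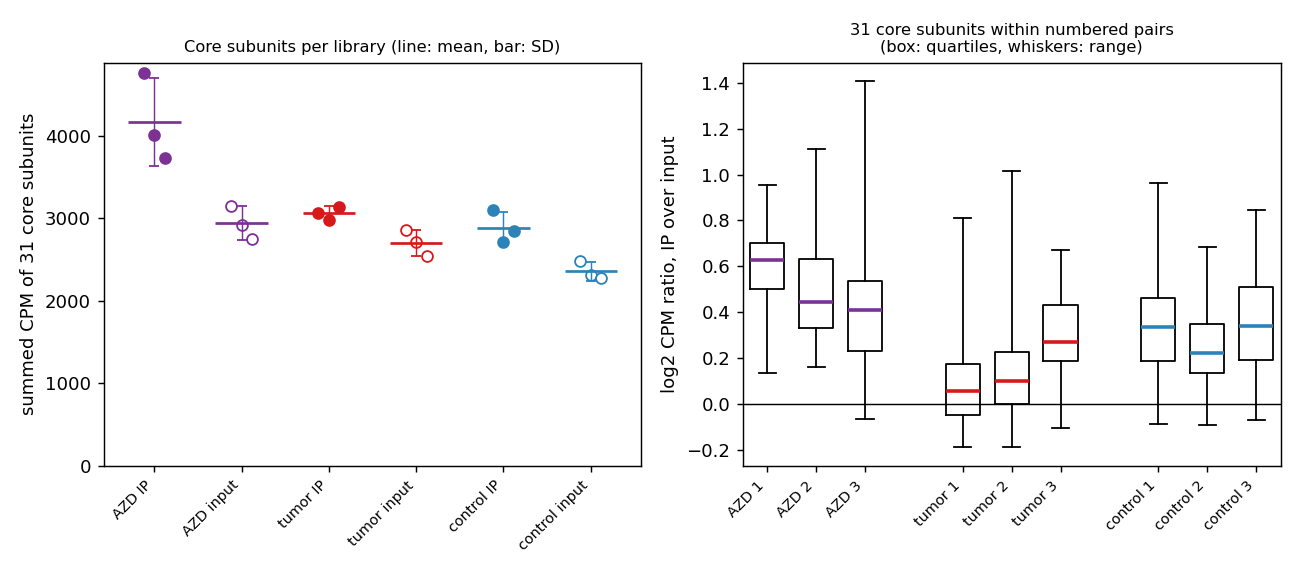
Left, the summed CPM of the 31 core subunits in each library, with filled points for IP, open points for input, a line at the mean and a bar of 1 SD. With TMM scaling, the 3 AZD IP libraries, from 3729 to 4764 CPM, lie above all others. Right, the log2 ratio of IP over input of the same 31 genes within each numbered pair of libraries (box: quartiles and median, whiskers: range); the medians are 0.41 to 0.63 in AZD, 0.06 to 0.27 in tumor and 0.22 to 0.34 in control.

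**Figure D2:**
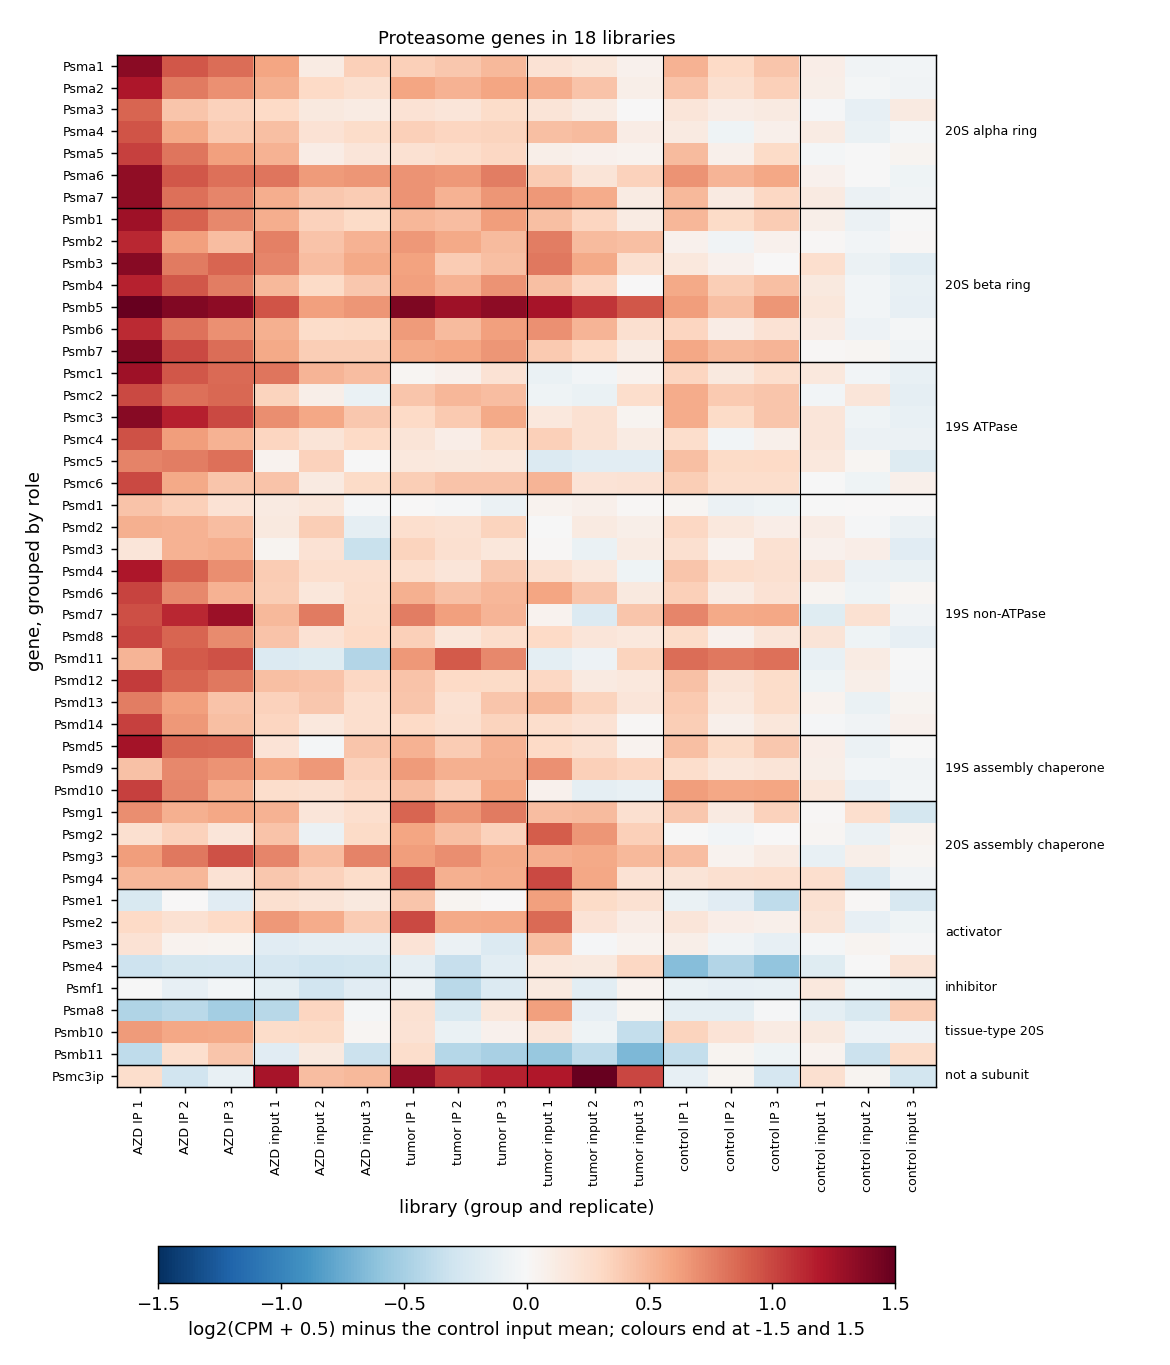
The level of each of the 47 genes (rows, grouped by role) in each of the 18 libraries (columns), as log2(CPM + 0.5) minus the mean of the 3 control input libraries; colours end at -1.5 and 1.5. Most core rows are highest in the 3 AZD IP columns, while Psmc3ip is high in the tumor columns.

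In AZD brains, core proteasome transcripts were higher in IP than in input. By edgeR's quasi-likelihood test with Benjamini-Hochberg adjustment over all genes tested, at an adjusted p under 0.05, 33 of the 46 members tested rose and 2 fell, where 29% of all genes tested rose and 32.5% fell. The core accounted for 29 of the 33: all 6 ATPases, all 11 non-ATPase subunits, 6 of 7 alpha and 6 of 7 beta subunits, with a median log2 fold of 0.54 over the 31 against -0.02 over all genes tested. The 2 core genes that did not pass were Psma4 (0.36 ± 0.14, SE) and Psmb2 (0.20 ± 0.17). With plain library totals in place of TMM the medians were 0.26 over the core and -0.30 over all genes, and 29 of the 31 core folds stayed above 0. The calls over all members were then 11 higher and 4 lower, and the share of all genes called with that scaling is not given.

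Psmd11, a subunit of the lid of the cap, had the highest fold. It stood at 42.96, 57.2 and 58.4 CPM in AZD IP, against 25.9, 26.5 and 22.04 CPM in AZD input, a log2 fold of 1.12 ± 0.14 (adjusted p = 0.000299). The groups did not overlap, and the AZD IP library lowest in Psmd11 was replicate 1, the library highest in the core sum. Psmb5, the subunit with chymotrypsin-like activity, stood at 20.2, 14.3 and 13.9 CPM in AZD IP, against 10.4, 8.23 and 8.46 CPM in AZD input, a log2 fold of 0.84 ± 0.19 (adjusted p = 0.00461). The other cutting subunits also rose, by 0.54 ± 0.13 for Psmb6 (caspase-like) and 0.67 ± 0.14 for Psmb7 (trypsin-like). In the cap, the ATPase Psmc2 rose by 0.80 ± 0.12, the ubiquitin receptor Psmd4 by 0.68 ± 0.13 and the deubiquitinase Psmd14 by 0.51 ± 0.14. The smallest called rise was that of Psmd1, a large scaffold subunit of the base, at 0.26 ± 0.10 (adjusted p = 0.0418), with 231, 221 and 199 CPM in AZD IP and 189, 193 and 170.2 CPM in AZD input. With plain library totals its fold was -0.02.

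Outside the core the members moved apart. The cap chaperone Psmd5 was high in IP, at 114, 87.2 and 86.03 CPM in AZD IP and 54.8, 46.7 and 63.9 CPM in AZD input (log2 fold 0.81 ± 0.15, adjusted p = 0.00165), and Psmd10 rose by 0.54 ± 0.14. None of the 4 barrel chaperones passed, with folds of 0.05 to 0.31. Of the activators, Psme3, a nuclear one, rose by 0.27 ± 0.08 (-0.01 with plain library totals), while Psme1, a subunit of the interferon-responsive activator, fell: it stood at 18.4, 21.7 and 19.1 CPM in AZD IP, against 25.7, 24.8 and 23.9 CPM in AZD input (log2 fold -0.30 ± 0.12, adjusted p = 0.0475). Its partner Psme2 did not pass, at -0.24 ± 0.13, and all 3 AZD IP libraries were below all 3 AZD input libraries for both genes. The immune-type subunit Psmb10, which takes the place of Psmb7 in immunoproteasomes, rose by 0.42 ± 0.11. Psmc3ip, no subunit, fell by 0.97 on the log2 scale, to 2.54, 1.59 and 1.85 CPM in AZD IP, against 5.47, 2.998 and 3.06 CPM in AZD input (adjusted p = 0.0293).

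Cell-type markers differed in the same comparison. All 10 excitatory neuron markers rose in AZD IP against AZD input. All 8 markers of each of the lists for inhibitory neurons, astrocytes, oligodendrocytes, glioma lineage, proliferation, microglia and endothelium fell. The part of the markers in the proteasome folds was not tested.

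In tumor and control brains fewer members passed, and the core medians were lower than in AZD. The difference between AZD and tumor was tested on the ratios themselves, and that between AZD and control was not tested. In control, 20 of the 45 members tested rose and 1 fell, where 17.7% of all genes tested rose and 18.8% fell; 18 of the 20 were core genes, and the core median was 0.29. Each of these 20 was also among the 33 that rose in AZD (60.6% of the 33). The comparisons share no library, but the same overlap over all genes was not counted, so this is a description only. In tumor, 1 of the 46 members tested passed, Psmd11, where 2.11% of all genes tested rose and 2.98% fell; the core median was 0.17. Psmd11 was no longer called there without any of the 3 tumor IP libraries or without tumor input replicate 1 or 2. The IP and input libraries with the same number deviated together, and with the replicate number as a block, 16 members rose and 2 fell in tumor (17.6% of all genes tested rose and 18.1% fell), and 12 of the 16 were core genes. With the block, 24 rose and 2 fell in control (21.9% and 23.1% of all genes tested), adding Psmb6, Psmc1, Psmd6 and Psmb10 to the risers and Psme1 to the fallers, and 34 rose and 2 fell in AZD (33.2% and 35.7% of all genes tested), adding Psma4 to the risers.

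Psmd11 had the highest fold of all members in each condition. It stood at 47.3, 57.4 and 49.9 CPM in tumor IP, against 26.96, 28.4 and 38.01 CPM in tumor input (log2 fold 0.73 ± 0.15, adjusted p = 0.0430). In control it was at 53.95, 52.4 and 53.6 CPM in IP, against 27.7, 32.6 and 29.9 CPM in input (0.81 ± 0.09, adjusted p = 2.88e-05). The IP libraries were above the input libraries in both. Its mean level in IP was 52.9 CPM in AZD, 51.5 CPM in tumor and 53.3 CPM in control. In control, Psmd7, the partner of the deubiquitinase in the lid, rose by 0.61 ± 0.11, with 64.99, 57.9 and 58.01 CPM in control IP and 34.3, 45.7 and 37.2 CPM in control input. Psmb5 rose by 0.61 ± 0.15, with 8.26, 7.27 and 8.52 CPM in control IP and 5.87, 4.999 and 4.73 CPM in control input. None of these groups overlapped. The smallest called rises in control were those of the alpha subunit Psma5 (0.28 ± 0.10), at 49.05, 37.2 and 43.01 CPM in control IP and 34.5, 34.99 and 36.2 CPM in control input, and the lid subunit Psmd13 (0.27 ± 0.09), at 78.4, 66.5 and 72 CPM in control IP and 62.01, 55.5 and 61.3 CPM in control input. Small as they are, neither gene's groups overlapped.

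The faller in control was Psme4, the nuclear activator known as PA200. It stood at 87.8, 101 and 90.8 CPM in control IP, against 121, 136 and 156 CPM in control input (log2 fold -0.58 ± 0.10, adjusted p = 0.000825). In tumor its fold was -0.41, with 125, 108 and 123 CPM in tumor IP and 153, 152 and 170.5 CPM in tumor input; it was called there with the replicate block (adjusted p = 0.000272). In AZD it was at 110.5, 114 and 115 CPM in IP and 115, 111 and 113 CPM in input, and the groups overlapped. With the block, Psme1 fell in control (-0.24 ± 0.09, adjusted p = 0.0395), and in tumor Psme2 rose (0.34 ± 0.11, adjusted p = 0.0160) and the inhibitor Psmf1 fell (-0.25 ± 0.09, adjusted p = 0.0382).

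**Figure D3:**
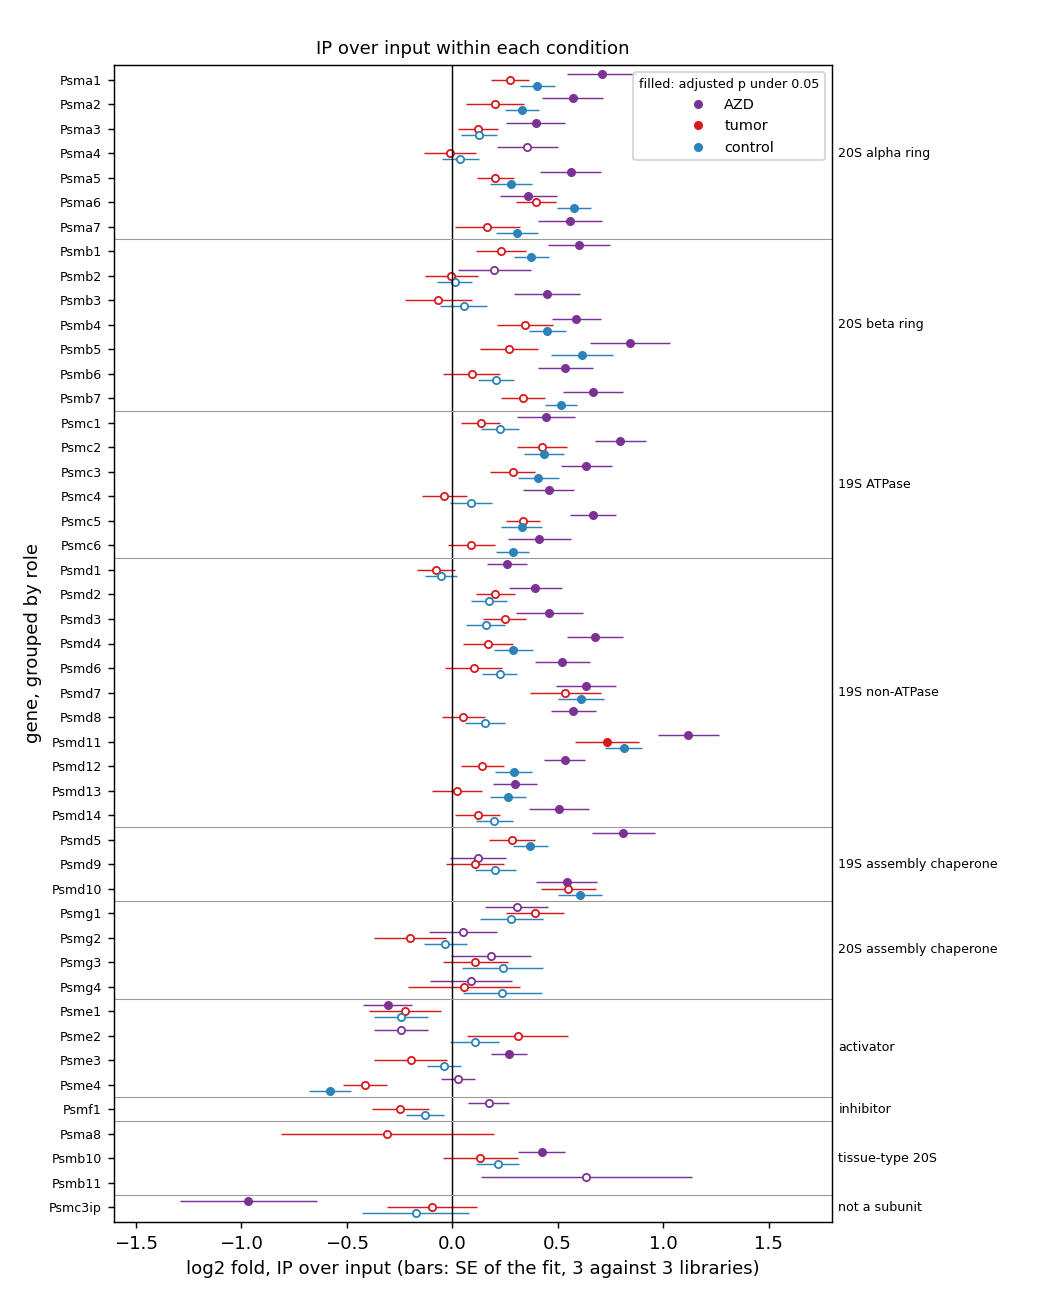
The log2 fold of IP over input for each gene, grouped by role, in AZD, tumor and control, with the SE of the fit as bars (3 against 3 libraries) and filled points where the adjusted p was under 0.05. Of the members tested, 35 points are filled in AZD (33 higher, 2 lower), 1 in tumor (Psmd11) and 21 in control (20 higher, 1 lower), and most core points lie right of 0 in each condition.

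The difference between conditions was tested on the IP-over-input ratio itself, in a fit of all 18 libraries. Between AZD and tumor, 8 of the 47 members had a higher ratio in AZD and 0 had a lower one, where 12.3% of all genes tested were higher and 20.8% lower; 5 of the 8 were cap subunits (Psmc4, Psmd1, Psmd4, Psmd8, Psmd12), and the others were Psmd5, Psme4 and Psmf1. With the replicate block the counts were 24 higher and 2 lower (Psme2 and Psmc3ip), with 20 core genes among the 24 and 21.8% of all genes higher and 28.4% lower. With plain library totals they were 0 higher and 2 lower, and the share of all genes called is not given for that scaling. The core median was then 0.17 and the median of all genes -0.22, against 0.35 and -0.04 with TMM. The count of calls was 1 without tumor IP replicate 2 and 15 without AZD IP replicate 3. It was 3 without AZD IP replicate 2, 5 without tumor IP replicate 3, and 4 without AZD IP replicate 1, AZD input replicate 3 or tumor input replicate 1.

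Psmd8, a lid subunit, had a log2 IP-over-input ratio of 0.58, 0.66 and 0.41 in the 3 AZD pairs, against 0.05, -0.01 and 0.10 in the 3 tumor pairs, a difference of 0.50 ± 0.15 (SE, adjusted p = 0.0149). All 3 AZD pairs were above all 3 tumor pairs. For Psmd5 the ratios were 1.05, 0.90 and 0.43 in AZD and 0.23, 0.14 and 0.47 in tumor, a difference of 0.51 ± 0.17 (adjusted p = 0.0321), and here the pairs overlapped. Psmf1, an inhibitor of the free barrel, had ratios of 0.15, 0.17 and 0.14 in AZD and -0.24, -0.24 and -0.27 in tumor (difference 0.40 ± 0.15, adjusted p = 0.0449). The ubiquitin receptor Psmd4 had ratios of 0.84, 0.64 and 0.45 in AZD and 0.02, 0.02 and 0.48 in tumor (0.49 ± 0.18, adjusted p = 0.0439), and its pairs overlapped. Psmd12, a lid subunit, had 0.60, 0.44 and 0.48 in AZD and 0.12, 0.17 and 0.13 in tumor (0.37 ± 0.13). Psmd1 had 0.29, 0.19 and 0.22 in AZD and -0.05, -0.09 and -0.10 in tumor (0.32 ± 0.11), the smallest called difference, with the AZD pairs above the tumor pairs for both. Psmb5 did not pass without the block (0.56 ± 0.22, adjusted p = 0.0595) and passed with it (adjusted p = 0.00990).

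Between tumor and control, 0 of 47 members had a different ratio by edgeR, where 0.05% of all genes tested were higher and 0.0187% lower. There were also 0 members at an unadjusted p under 0.05, 0 by DESeq2 and 0 with the replicate block, where 0.318% of all genes were higher and 0.0999% lower. The shares of all genes at that unadjusted p and by DESeq2 are not given. The core median of this difference was -0.13, against -0.007 over all genes tested, with core folds from -0.36 (Psmb5) to 0.07. Of the 31 core folds 2 were above 0, and 5 with plain library totals. Core genes varied together across libraries, so their shared sign is not a count of independent results. With so few genes called, the absence of calls does not show that the core ratio was unchanged.

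The promoters of these genes are shown for 3 of the cap subunits whose ratio was higher in AZD than in tumor, Psmd4, Psmd8 and Psmd12, and for Psmb5, the core gene with the highest tumor fold. Each is the 250 bases before the annotated start in RefSeq's annotation of GRCm38.p6, 5′ to 3′ on the gene's strand. The capitals mark, in the first 3, the core of the site bound by ETS-family factors (CGGAAG, or CTTCCG on the other strand), and in Psmb5 the core of the antioxidant response element (TGACNNNGC), the kind of site through which Nfe2l1 acts. The intervals are chr3:95042615-95042864 (minus strand) for Psmd4, chr7:29180674-29180923 (minus strand) for Psmd8, chr11:107479278-107479527 (plus strand) for Psmd12 and chr14:54617996-54618245 (minus strand) for Psmb5.
Psmd4: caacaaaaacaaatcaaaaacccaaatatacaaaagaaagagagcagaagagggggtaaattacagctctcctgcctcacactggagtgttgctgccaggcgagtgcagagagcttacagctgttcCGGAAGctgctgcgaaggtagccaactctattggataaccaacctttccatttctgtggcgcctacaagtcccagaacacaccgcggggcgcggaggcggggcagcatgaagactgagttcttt
Psmd8: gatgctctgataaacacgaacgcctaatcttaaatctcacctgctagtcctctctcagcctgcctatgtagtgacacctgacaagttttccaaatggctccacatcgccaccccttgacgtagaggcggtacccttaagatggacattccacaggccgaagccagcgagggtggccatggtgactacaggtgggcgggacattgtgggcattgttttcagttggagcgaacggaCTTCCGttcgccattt
Psmd12: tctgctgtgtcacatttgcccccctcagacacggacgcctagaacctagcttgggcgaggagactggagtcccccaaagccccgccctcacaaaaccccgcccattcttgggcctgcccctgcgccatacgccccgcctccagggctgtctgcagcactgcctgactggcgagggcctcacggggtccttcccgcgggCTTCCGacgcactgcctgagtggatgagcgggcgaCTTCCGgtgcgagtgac
Psmb5: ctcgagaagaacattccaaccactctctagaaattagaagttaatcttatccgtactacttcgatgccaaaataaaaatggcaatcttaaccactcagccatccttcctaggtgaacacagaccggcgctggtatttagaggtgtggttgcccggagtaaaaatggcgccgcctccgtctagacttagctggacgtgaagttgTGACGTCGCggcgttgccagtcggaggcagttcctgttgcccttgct
The last match lies 118 bases before the start in Psmd4, 10 in Psmd8, 11 in Psmd12 (which has 2 matches) and 38 in Psmb5.

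A promoter was listed for 39 of the 47 members, and 7 motifs were searched in these 250 bases on both strands. CGGAAG was present in 20 of the 39, or 51.3%, and in 15.3% of all 27025 genes with a promoter in the table. TGACNNNGC was in 5 of the 39 (12.8%) and in 11.5% of all genes, and CCAAT in 14 (35.9%) and in 37.5%. The interferon-stimulated response element core was in 3 (7.69%) and 3.46%, and the palindrome bound by nuclear respiratory factor in 1 (2.56%) and 0.877%. TTCNNGGAA, which can overlap CGGAAG, was in none of the 39 and in 4.74% of all, and TGACGTCA, which shares its first letters with TGACNNNGC, in none and in 1.77%. These are matches of letters, and binding was not measured. The 47 genes lie on 16 chromosomes, 9 of them on chromosome 11 and 6 on chromosome 14, where Psme1 and Psme2 are 5912 bases apart.

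With glioma, without drug, proteasome genes rose in IP about as often as all genes did. Of the 47 members tested in tumor IP against control IP, 13 rose and 0 fell, where 26.1% of all genes tested rose and 20.9% fell. The core gave 4 of the 13, all in the beta ring (Psmb2, Psmb3, Psmb5, Psmb6), with 0 of 7 alpha subunits and 0 of 17 cap subunits. The others were all 4 barrel chaperones, 3 of 4 activators (Psme1, Psme2, Psme4), Psmd9 and Psmc3ip. The core median was 0.11, against 0.02 over all genes tested, and 28 of the 31 core folds were above 0. With DESeq2's size factors 21 of the 31 were above 0. By role the median was 0.38 for beta subunits, 0.14 for alpha subunits, 0.10 for non-ATPase cap subunits and 0.03 for ATPases.

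Psmb5 stood at 14.5, 13.2 and 13.9 CPM in tumor IP, against 8.26, 7.27 and 8.52 CPM in control IP (log2 fold 0.82 ± 0.16, adjusted p = 0.00170). Psmb6 was at 90.8, 81.5 and 89.3 CPM in tumor IP and 73.2, 63.2 and 67.8 CPM in control IP (0.38 ± 0.12, adjusted p = 0.0198). For both genes the groups did not overlap. The third cutting subunit, Psmb7, did not pass and its groups overlapped, at 129, 131 and 138 CPM in tumor IP and 130.4, 122 and 124 CPM in control IP (0.11 ± 0.12). Psmb10, its immune-type counterpart, did not pass either, at 23.8, 19.01 and 21.4 CPM in tumor IP and 25.9, 23.7 and 22.3 CPM in control IP (-0.14 ± 0.11).

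The barrel chaperones, which guide the alpha ring together and stay out of the finished particle, had folds of 0.47 to 0.52. Psmg2 stood at 20.8, 18.9 and 17.5 CPM in tumor IP, against 13.6, 13.3 and 13.7 CPM in control IP (0.52 ± 0.11, adjusted p = 0.00250). Among activators, Psme2 was at 24.9, 18.6 and 18.7 CPM in tumor IP and 14.04, 13.3 and 13.01 CPM in control IP (0.65 ± 0.13, adjusted p = 0.00211), and Psme1 at 29.02, 22.2 and 21.6 CPM in tumor IP and 20.2, 19.2 and 16.6 CPM in control IP (0.41 ± 0.14, adjusted p = 0.0316). Tumor IP replicate 1 was the highest of the 6 libraries for both. Psme4 rose by 0.37 ± 0.09, with 125, 108 and 123 CPM in tumor IP and 87.8, 101 and 90.8 CPM in control IP. Psmd9, a cap chaperone, rose by 0.39 ± 0.10, with 24.2, 22.6 and 22.6 CPM in tumor IP and 18.7, 17.5 and 17.7 CPM in control IP. For both, tumor IP lay above control IP throughout. The largest fold was that of Psmc3ip, at 5.84, 4.85 and 5.16 CPM in tumor IP and 1.84, 2.10 and 1.63 CPM in control IP (1.53 ± 0.22, adjusted p = 0.000323).

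In input, 14 of the 46 members tested rose in tumor against control and 0 fell, where 24.5% of all genes tested rose and 23.6% fell, again a share of rises not far from that of the members. They were 7 ring genes (3 alpha, and again Psmb2, Psmb3, Psmb5 and Psmb6), 2 lid subunits (Psmd6 and Psmd13), 3 of 4 barrel chaperones, Psmd9 and Psmc3ip. The core median in input was 0.20, against -0.01 over all genes tested, and 28 of the 31 core folds were above 0. By role the median was 0.48 for beta subunits, 0.30 for alpha subunits, 0.10 for non-ATPase cap subunits and 0.07 for ATPases. The lists of risers in IP and input shared 9 genes, 69.2% of the 13 and 64.3% of the 14. The same overlap over all genes was not counted. Psmb5 stood at 12.9, 11.5 and 10.3 CPM in tumor input, against 5.87, 4.999 and 4.73 CPM in control input, the largest core fold here (1.14 ± 0.18, adjusted p = 0.000691). Psmg4 rose by 0.69 ± 0.25, but its groups overlapped, at 7.26, 5.30 and 4.04 CPM in tumor input and 4.15, 2.89 and 3.26 CPM in control input. Psmc3ip was at 5.33, 7.001 and 4.58 CPM in tumor input and 2.49, 2.11 and 1.60 CPM in control input (1.44 ± 0.31, adjusted p = 0.00375). The smallest called rises were those of 2 alpha subunits and a lid subunit. Psma6 (0.30 ± 0.10) was at 84.9, 74.9 and 83.01 CPM in tumor input and 68.3, 65.1 and 62.5 CPM in control input. Psmd13 (0.33 ± 0.11) was at 83.8, 75.1 and 67.4 CPM in tumor input and 62.01, 55.5 and 61.3 CPM in control input. Psma4 (0.34 ± 0.13) was at 74.6, 75.6 and 58.8 CPM in tumor input and 59.6, 50.9 and 53.3 CPM in control input. The groups overlapped for Psma4 and not for the others.

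Of the cutting subunits in input, Psmb6 (0.48 ± 0.14) was at 94, 83.1 and 68.8 CPM in tumor input and 62.9, 55.5 and 56.96 CPM in control input, with no overlap. Psmb7 (0.27 ± 0.11) did not pass, at 114, 107 and 94.7 CPM in tumor input and 88.3, 88.6 and 83.9 CPM in control input, though its groups did not overlap. Psmb10 (-0.08 ± 0.16) did not pass either, at 23.2, 19.6 and 15.8 CPM in tumor input and 22.7, 19.3 and 19.4 CPM in control input, and its groups overlapped. The interferon-responsive activator subunits did not pass in input. Psme1 (0.37 ± 0.15) was at 33.3, 26.6 and 25.4 CPM in tumor input and 25.4, 21.9 and 18.2 CPM in control input. Psme2 (0.43 ± 0.21) was at 22.5, 14.3 and 13.3 CPM in tumor input and 14.1, 11.2 and 11.8 CPM in control input. The highest library of the 6 for both was tumor input replicate 1. The count of calls in input was 4 without control input replicate 3, 6 without control input replicate 2 or tumor input replicate 1, and 9 without tumor input replicate 2. In IP it was 8 without control IP replicate 2 or 3.

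In the same comparisons all 8 glioma lineage markers and all 8 proliferation markers rose in both fractions, and 9 of 10 excitatory markers in IP and 10 of 10 in input fell. The glioma lineage markers summed to 4795 to 5209 CPM in tumor IP and 410 to 544 CPM in control IP, and to 5994 to 6762 CPM in tumor input and 538 to 610 CPM in control input. Their part in the rise of barrel genes and chaperones was not tested.

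**Figure D4:**
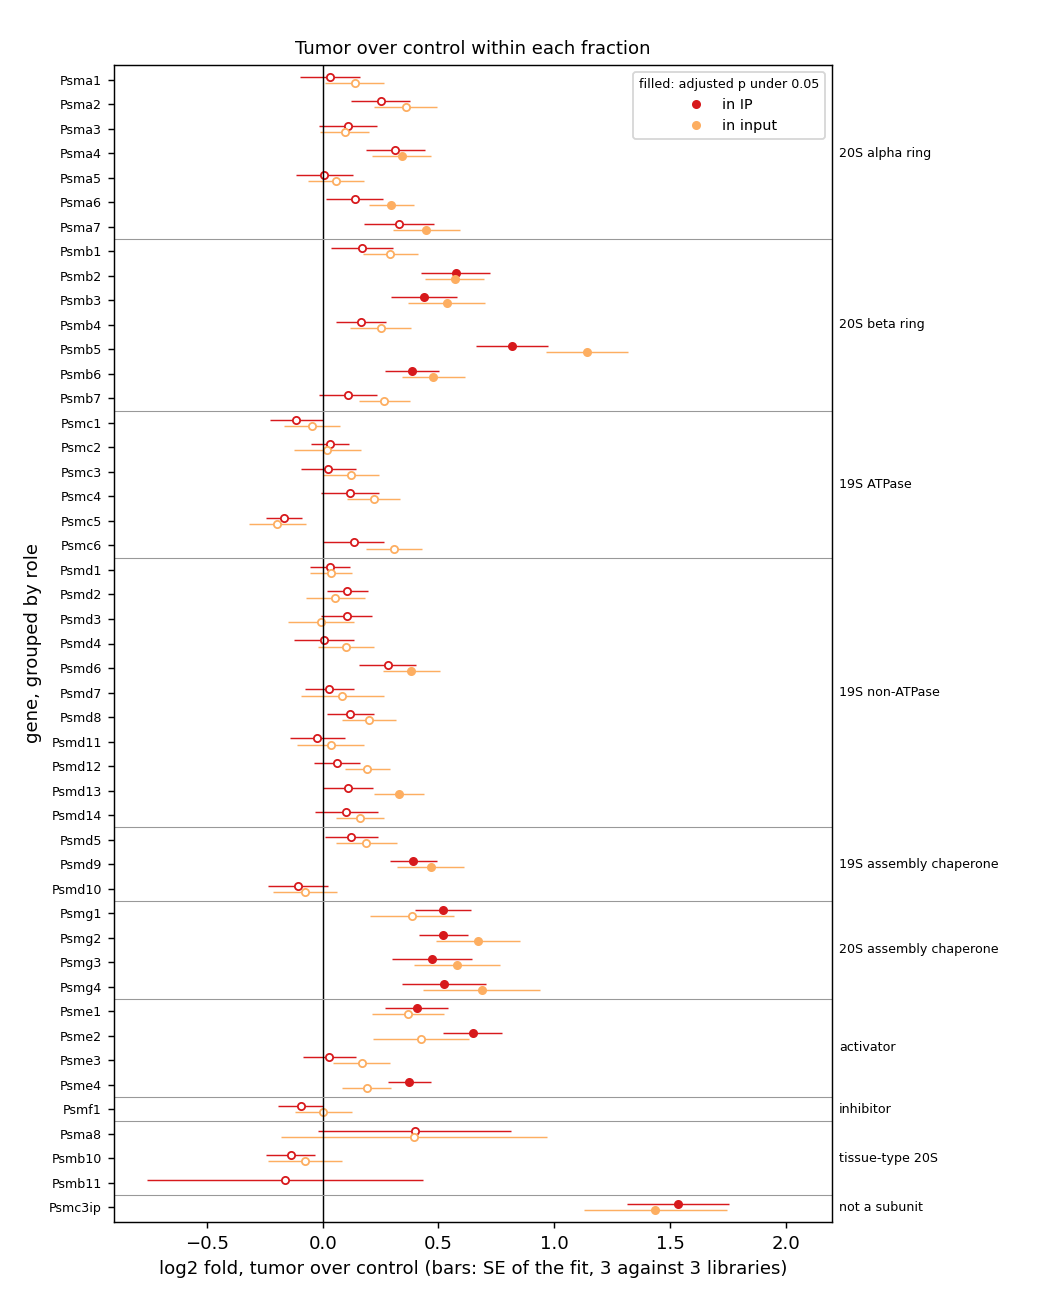
The log2 fold of tumor over control for each gene, grouped by role, in IP and in input, with the SE of the fit as bars (3 against 3 libraries) and filled points where the adjusted p was under 0.05. Filled points in IP are Psmb2, Psmb3, Psmb5, Psmb6, Psmd9, the 4 barrel chaperones, Psme1, Psme2, Psme4 and Psmc3ip, and no cap subunit of the core is filled in IP.

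Core subunits of both cap and barrel formed most of the rises in IP between drug-treated and untreated glioma brains. In AZD IP against tumor IP, 20 of the 47 members rose and 3 fell, where 25.1% of all genes tested rose, 33.5% fell and the median of all genes was -0.09. Of the 20, 18 were core genes: 5 of 6 ATPases, 6 of 11 non-ATPase cap subunits, 3 of 7 alpha and 4 of 7 beta subunits. The core median was 0.34. By role the median was 0.54 for ATPases, 0.34 for non-ATPase cap subunits, 0.32 for alpha and 0.33 for beta subunits. With plain library totals the split was 15 higher and 6 lower, with medians of 0.21 over the core and -0.23 over all genes. Without AZD IP replicate 1, the library highest in the core sum, 17 members rose and 3 fell. The share of all genes called is not given for either setting.

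The largest rises were those of the cap base ATPases Psmc1 and Psmc3 and the ubiquitin receptor Psmd4. Psmc1 stood at 249.8, 198 and 187 CPM in AZD IP, against 105, 108 and 120.3 CPM in tumor IP (log2 fold 0.90 ± 0.12, adjusted p = 8.75e-05). Psmc3 was at 290.1, 254 and 224 CPM in AZD IP and 139, 148 and 167 CPM in tumor IP (0.73 ± 0.12, adjusted p = 0.000390), and Psmd4 at 189, 150.4 and 132 CPM in AZD IP and 96.9, 91.7 and 108 CPM in tumor IP (0.64 ± 0.13, adjusted p = 0.00155). The AZD IP libraries lay above the tumor IP libraries for all 3 genes. Psmb10 also rose, with 32, 30.7 and 30.6 CPM in AZD IP (0.51 ± 0.11, adjusted p = 0.00188). Psmb5 did not pass (0.18 ± 0.15), and its groups overlapped.

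The fallers were Psme2, Psmc3ip and Psma8. Psme2 was at 15.3, 14.5 and 15.3 CPM in AZD IP, below its 24.9, 18.6 and 18.7 CPM in tumor IP (-0.49 ± 0.13, adjusted p = 0.00745). Psme1 had a fold of -0.32 ± 0.14 and did not pass. Psmc3ip was at 2.54, 1.59 and 1.85 CPM in AZD IP, against 5.84, 4.85 and 5.16 CPM in tumor IP (-1.46 ± 0.22, adjusted p = 0.000267). Psma8 rested on few reads, 2, 5 and 4 counts in AZD IP and 10, 6 and 16 counts in tumor IP (-1.47 ± 0.48, adjusted p = 0.0217). None of the 4 barrel chaperones passed, with folds of -0.33 to 0.16.

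In input the drug comparison had few calls. Of the 46 members tested in AZD input against tumor input, 3 rose (Psmc1, Psmc3 and Psma6) and 1 fell (Psme4), where 7.89% of all genes tested rose and 9.17% fell. The core median was 0.10. Psmc1 stood at 182, 148 and 143 CPM in AZD input, against 96.7, 101 and 107 CPM in tumor input (0.67 ± 0.12, adjusted p = 0.00527). Psmc3 rose by 0.46 ± 0.12, with 183, 169 and 149 CPM in AZD input and 125, 132 and 116 CPM in tumor input. Psma6 rose by 0.43 ± 0.10, with 114, 102 and 104 CPM in AZD input and 84.9, 74.9 and 83.01 CPM in tumor input. For all 3, each AZD input library was above each tumor input library. Psme4 was at 115, 111 and 113 CPM in AZD input, against 153, 152 and 170.5 CPM in tumor input (-0.46 ± 0.11, adjusted p = 0.0162). Psmb5 had a fold of -0.32 ± 0.17 and did not pass. Without AZD input replicate 2 the count of calls was 2. In AZD IP against tumor IP all 10 excitatory markers rose and all 8 markers each of astrocytes, glioma lineage and proliferation fell, and in input all 8 glioma lineage markers fell. Their part was not tested.

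Against mice without tumor, AZD IP libraries were higher in nearly the whole core. In AZD IP against control IP, 34 of 47 members rose and 0 fell, where 16% of all genes tested rose and 17.4% fell; all 14 ring genes and 15 of 17 cap subunits were among them, and the core median was 0.56. Psmb5 had the largest fold (0.99 ± 0.16, adjusted p = 0.000898), at 20.2, 14.3 and 13.9 CPM in AZD IP and 8.26, 7.27 and 8.52 CPM in control IP. Psmb3, a structural subunit of the beta ring, was at 73.5, 48.9 and 52.2 CPM in AZD IP and 31.7, 29.6 and 28.3 CPM in control IP (0.95 ± 0.14). Psmc1 (0.79 ± 0.12) was at 249.8, 198 and 187 CPM in AZD IP and 129.9, 115 and 123 CPM in control IP. The 3 genes had no overlap between groups. At the low end, Psme4 (0.28 ± 0.09) was at 110.5, 114 and 115 CPM in AZD IP and 87.8, 101 and 90.8 CPM in control IP. Psmd2 (0.32 ± 0.09), a large scaffold subunit of the base, was at 314, 312 and 299 CPM in AZD IP and 269, 241 and 232 CPM in control IP. Psmd13 (0.33 ± 0.11) was at 102, 91.2 and 80.1 CPM in AZD IP and 78.4, 66.5 and 72 CPM in control IP. Here too the AZD IP libraries lay above the control IP libraries. The cap subunits that did not pass were Psmd3 and Psmd11. Without AZD IP replicate 1 the count was 33, and without control IP replicate 3 it was 25. Of the excitatory markers 4 of 10 were higher in AZD IP and the others did not pass. Of the proliferation markers 7 of 8 rose, with sums of 56.8 to 148 CPM in AZD IP and 16.6 to 24.8 CPM in control IP, and of the glioma lineage markers 2 rose and 2 fell of 8, while 8 of 8 microglia, oligodendrocyte, inhibitory neuron and endothelium markers each and 7 of 8 astrocyte markers fell. Their part was not tested.

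In AZD input against control input, 20 of 46 members rose and 0 fell, where 20.7% of all genes tested rose and 16% fell. Of these, 17 were core genes, with all 7 beta subunits, 4 alpha subunits and 6 cap subunits, and the core median was 0.35. Psmb5 stood at 10.4, 8.23 and 8.46 CPM in AZD input, against 5.87, 4.999 and 4.73 CPM in control input (0.82 ± 0.18, adjusted p = 0.00564). Psmg3 was at 6.02, 4.91 and 6.07 CPM in AZD input and 3.13, 3.67 and 3.50 CPM in control input (0.74 ± 0.19), and Psmc3ip (0.92 ± 0.31) at 5.47, 2.998 and 3.06 CPM in AZD input and 2.49, 2.11 and 1.60 CPM in control input. The groups did not overlap for these genes. Psmd8 had the smallest called fold (0.33 ± 0.12), at 94.9, 81.9 and 86.8 CPM in AZD input and 80.6, 67.5 and 64.7 CPM in control input. Psmd13 (0.35 ± 0.11) was at 75.5, 79.1 and 70.96 CPM in AZD input and 62.01, 55.5 and 61.3 CPM in control input. Psma2 (0.38 ± 0.14) was at 110.4, 94.2 and 90.5 CPM in AZD input and 81.3, 74.6 and 73.4 CPM in control input. These groups did not overlap either. The count was 9 without AZD input replicate 1 or without control input replicate 2, and 8 without control input replicate 3. In AZD input against control input 7 of 8 glioma lineage markers rose, with sums of 2821 to 4052 CPM in AZD input and 538 to 610 CPM in control input. All 8 proliferation markers rose, with sums of 244 to 754 CPM in AZD input and 16.1 to 24.8 CPM in control input, and 7 of 10 excitatory markers fell, with sums of 1388 to 1820 CPM in AZD input and 2753 to 3001 CPM in control input. Their part was not tested. Both comparisons with control share AZD or control libraries with those above and are not independent of them.

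**Figure D5:**
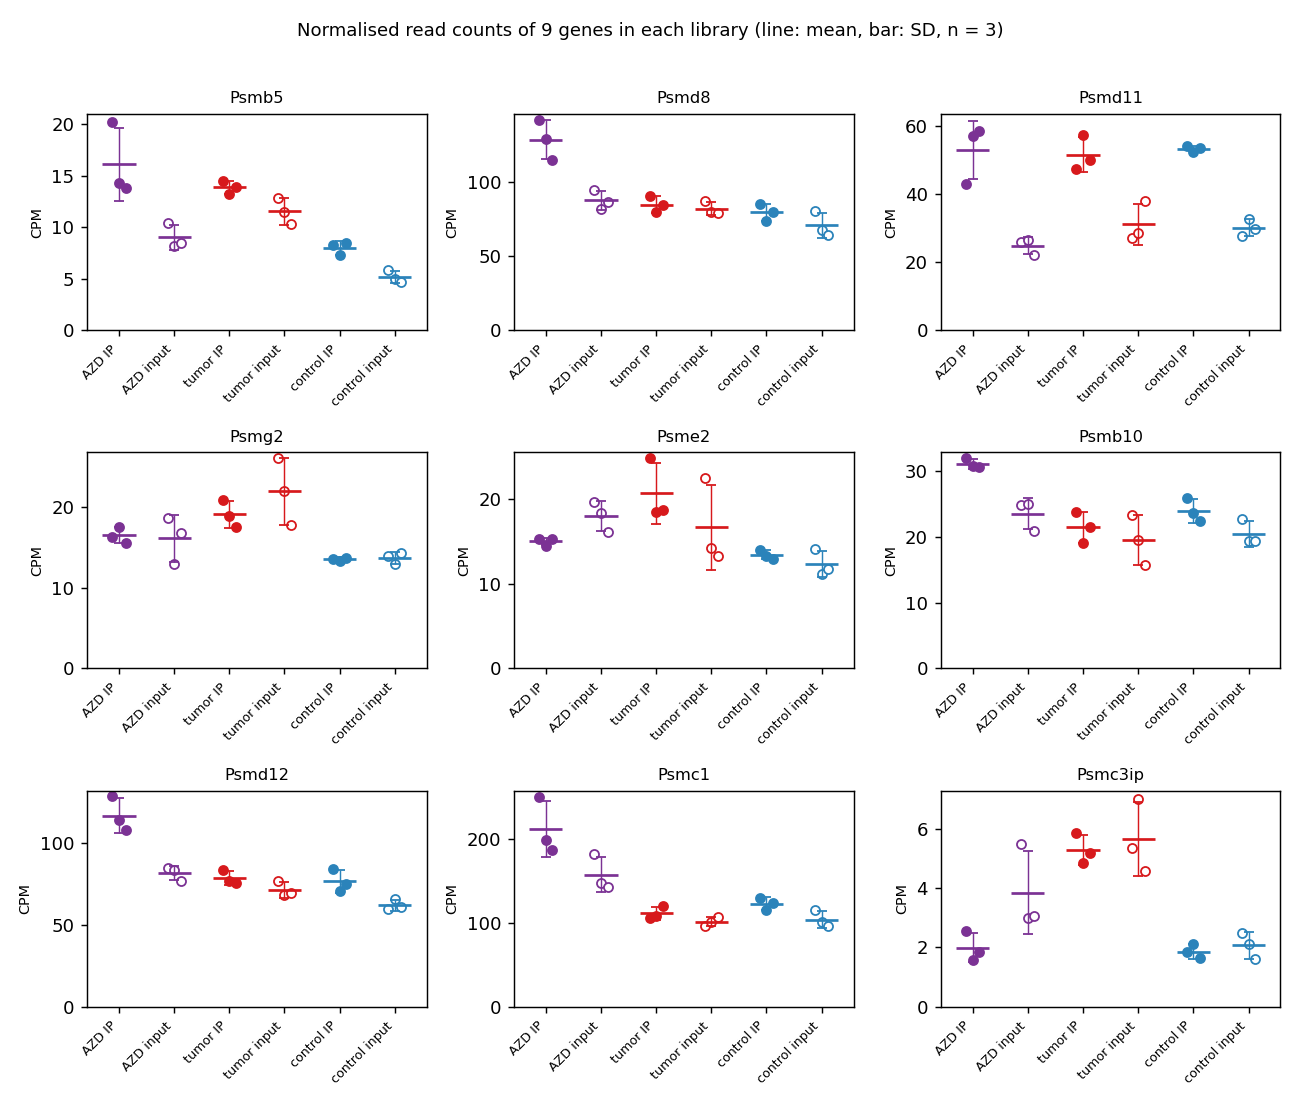
CPM of 9 genes in each library by group (AZD purple, tumor red, control blue; filled IP, open input), with a line at the mean and a bar of 1 SD (n = 3). Psmd11 has IP means of 51.5 to 53.3 CPM in all conditions, Psmb5 and Psmg2 are higher in tumor than in control, and Psmc1 and Psmd12 are highest in AZD IP.

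Across the 18 libraries the core genes varied together. The Pearson correlation of each core gene with the mean of the other core genes, as log2(CPM + 0.5), ranged from 0.43 to 0.99, with Psmb1 at the top and Psmd11 and Psmd3 (0.58) at the bottom. These values share libraries, depth and group differences and are given as a description. Among 10287 genes with a mean of at least 10 CPM, those most like the core mean were Ddx1 (r = 0.98), Srp14 (0.97), Swi5 (0.97), Ufc1 (0.96) and Cnot8 (0.96). Those most like Psmb10 were Pithd1 (0.94), Nedd8 (0.93) and Dync1li1 (0.93). The gene most like Psme1 was Slc3a2 (0.94), and those most like Psme2 were Ptgfrn (0.94) and 2810004N23Rik (0.94).

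Around the proteasome genes, 30 regulators and partners were examined. In AZD IP against AZD input 18 rose and 2 fell, where 29% of all genes tested rose and 32.5% fell. The shuttle Ubqln2, which carries ubiquitin-marked proteins to the cap, rose by 1.09, the cap-bound deubiquitinases Usp14 and Uchl5 by 0.86 and 0.76, and the barrel maturation factor Pomp by 0.62. Usp14 stood at 285, 289 and 256 CPM in AZD IP, against 160.1, 150.0 and 154 CPM in AZD input, with no overlap. Nfe2l1 rose by 0.42. The fallers were Rps27a (-0.53), a ubiquitin and ribosomal protein precursor, and Nfe2l2, a regulator of the oxidative stress response.

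Nfe2l2 was at 2.62, 2.25 and 3.21 CPM in AZD IP, against 19.3, 11.7 and 16.3 CPM in AZD input (-2.52, adjusted p = 8.8e-05), and at 28.6, 25.7 and 32.8 CPM in tumor IP and 7.87, 10.1 and 11.3 CPM in control IP. It fell by 3.45 on the log2 scale in AZD IP against tumor IP, and rose by 1.60 in tumor IP against control IP. In AZD IP against AZD input the median folds of the marker lists were -2.52 for microglia, -2.42 for glioma lineage and -2.17 for astrocytes. For excitatory neurons the median was 1.37. The part of the markers in the Nfe2l2 folds was not tested. Of the 30, 16 rose and 1 fell in AZD IP against tumor IP, where 25.1% of all genes tested rose and 33.5% fell. In tumor IP against control IP 5 rose and 8 fell, where 26.1% of all genes tested rose and 20.9% fell. Among the 8 were Nfe2l1 (-0.45), Usp14 (-0.48) and Ubqln2 (-0.64).

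The immunoproteasome subunits Psmb8 and Psmb9, which the interferon response induces, were left out of the 47 and are given for comparison. Psmb9 was at 0.73 to 1.10 CPM in tumor IP and 0.37 to 0.98 CPM in control IP. In AZD it was at 0.07 to 1.23 CPM in IP and 0.67 to 3.10 CPM in input, and both pairs of groups overlapped. Psmb8 stood at 2.54, 0.996 and 0.803 CPM in AZD IP and 13.2, 7.53 and 4.01 CPM in AZD input, and at 9.99, 5.04 and 5.58 CPM in tumor IP and 1.68, 2.24 and 3.23 CPM in control IP. It fell in AZD IP against AZD input (log2 fold -2.62) and against tumor IP (-2.39), and rose in tumor IP against control IP (1.55). The activators Psme1 and Psme2 were likewise lower in mean level in AZD IP than in AZD input or tumor IP, while Psmb10, the other interferon-type subunit among the 47, was higher. The part of the cell-type markers in these differences was not tested.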

How the data were processed

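Read counts per gene symbol, whole numbers that were not normalized, were deposited by the authors for 18 libraries. Per the labels, RNA was purified with an RNeasy kit and libraries were made with a strand-marking NEBNext kit. STAR, DESeq2 and mm10 are named in the submitters' processing notes. How reads were counted, whether by strand, and the versions used were not given in the sources used here. No 2 libraries had identical counts, and 0 columns of per-sample values were left unused.

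The counts were scaled by TMM, filtered with filterByExpr and tested with the quasi-likelihood F test of edgeR 4.0.16, run in R 4.3.3, in 11 comparisons, with Benjamini-Hochberg adjustment over all genes tested and a threshold of 0.05. Each condition had its own fit of IP against input (6 libraries), and each fraction its own fit of the conditions (9 libraries). IP-over-input ratios were contrasts in a fit of all 18. The fold is the first group over the second, and ± is the standard error. CPM values are TMM-scaled and have no pseudocount. The alternatives were DESeq2 1.42.0, its size factors, plain library totals, 2 other filters on low counts, a single fit, a replicate block and leaving out each library. The fit was also run on simulated counts to check the size of fitted folds. Simulated libraries were drawn independently, unlike the pairs described below. Precision is limited by 3 libraries a group.

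Replicate numbers in the labels pair IP and input libraries: over 16016 genes, the deviations of same-numbered libraries from their group means correlated by 0.27 to 0.556 in AZD, by 0.62 to 0.847 in tumor and by 0.269 to 0.323 for the control mice, each best with its own number. The blocked values stand beside results whose call or count they change.

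In each comparison the 3 highest and the 3 lowest folds among called members are given with all libraries, with the cutting subunits, Psmb10, Psme1 and Psme2 in tumor against control; other genes named are examples. The members and lists were chosen with earlier results of these data known. The table's symbol for Sem1 is Shfm1. Promoters and coordinates are RefSeq's for GRCm38.p6. Results that need items withheld for evaluation are not reported here.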

Additional observations from a re-analysis of the deposited data

Results flagged for a closer look

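For 8 members the IP-over-input ratio differed between AZD and tumor by the test of the difference itself in edgeR (log2, AZD minus tumor, ± SE, with Benjamini-Hochberg adjusted p), where 12.3% of all genes tested were higher and 20.8% lower. Leaving out single libraries gave 1 to 15 such members. The fit behind these 8 did not use the replicate pairs. With the replicate block 24 members were higher and 2 lower (Psme2 and Psmc3ip), where 21.8% of all genes tested were higher and 28.4% lower. For the ATPase Psmc4 the difference was 0.48 ± 0.17 (adjusted p = 0.0379). For the scaffold subunit Psmd1 it was 0.32 ± 0.11 (adjusted p = 0.0378). For the lid subunits Psmd8 and Psmd12 it was 0.50 ± 0.15 (adjusted p = 0.0149) and 0.37 ± 0.13 (adjusted p = 0.0370). For the ubiquitin receptor Psmd4 it was 0.49 ± 0.18 (adjusted p = 0.0439) and for the cap chaperone Psmd5 0.51 ± 0.17 (adjusted p = 0.0321). For the activator Psme4 it was 0.42 ± 0.14 (adjusted p = 0.0259) and for the inhibitor Psmf1 0.40 ± 0.15 (adjusted p = 0.0449). The AZD libraries form a library set of their own, and group and library set cannot be told apart. With plain library totals no member was called higher in AZD, while 28 of the 31 core folds were above 0. The core median was then 0.17, against -0.22 over all genes tested.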

How the results depend on the processing

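With 3 libraries a group, counts of calls moved with single libraries and with scaling. The counts here are given without the share of all genes called in each setting, so they show only how far the counts moved. Leaving out each library in turn gave 25 to 34 called members for AZD IP against input, 0 to 1 for tumor IP against input, 15 to 24 for control IP against input, 8 to 12 for tumor against control in IP and 4 to 20 in input. It gave 19 to 31 for AZD against tumor in IP and 2 to 4 in input, 25 to 33 for AZD against control in IP and 8 to 19 in input, 0 to 0 for the ratio between tumor and control and 1 to 15 for the ratio between AZD and tumor. Plain library totals gave 15 calls for AZD IP against input, 2 for tumor IP against input and 2 (0 higher, 2 lower) for the ratio between AZD and tumor. For tumor IP against input, DESeq2 gave 8 calls, a single fit of all libraries 7, a mean of at least 5 CPM 0 and the replicate block 18. For the ratio between AZD and tumor, a mean of at least 5 CPM gave 1 call, no filter 5 and the replicate block 26. The block moved no other count by over 1.5 times.

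The 193 results on single genes were refitted in these settings. In the settings that kept all libraries, 1082 refits were unchanged, 100 lost the call, 27 gained it and 4 turned sign. With a single library left out, 944 refits were unchanged, 265 lost the call, 17 gained it and 3 turned sign. The sign turned in AZD IP against input with plain library totals for Psmd1 (-0.0213), Psme3 (-0.00836) and Psmb2 (-0.0807). It turned for Psmb10 in tumor against control input with plain library totals (0.0221), and without tumor input replicate 3 or control input replicate 1, where leaving out each library gave -0.226 to 0.0610. It turned for Psmb5 in AZD against tumor IP without AZD IP replicate 1, where the range was -0.00195 to 0.281. The cause of these shifts was not tested. Genes with few counts, such as Psma8, are limited by depth.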
